A study of Saccharomyces cerevisiae with 6 samples.

Results

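The genes described here build the sugar chains of secreted and cell wall proteins in the budding yeast Saccharomyces cerevisiae: 44 genes chosen by name for protein O-mannosylation (6), N-glycan assembly (18), extension of mannan in the Golgi (16) and supply of mannose donors (4). The rule names genes by function and uses no measured ratio, though it was written with earlier results of these data known. Of the 44, 43 had a spot among the 5361 named genes of the array, each a single spot, and 38 had a value on all 3 hybridizations, out of 3641 genes so measured. STT3, the catalytic subunit of the oligosaccharyltransferase, had no named spot. PMT5, ALG2, OST4 and MNN4 lacked a value on replicate 2, and OST2 had a value on replicate 3 alone.

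Strain S288C was grown at 25 °C in rich glucose medium and received chloroacetaldehyde, a reactive chlorinated aldehyde, at 25 ppm once the culture stood at an optical density of 1, in exponential growth. Polyadenylated RNA of cells exposed for 2 h (Cy5) was set against RNA of cells at the same density before exposure (Cy3) on 2-colour cDNA arrays, with 3 hybridizations from independent biological samples. Each value is the log2 ratio of the exposed over the earlier cells. Neither the log base nor the direction is given in the sources used here. Base 2 was assumed, and the direction is the likely one because exposed cells are listed as channel 1, so all signs would turn if it were the opposite. Dye, 2 h of further growth and exposure cannot be told apart, since all arrays had the same dye order and the partner RNA was taken at the start. Such ratios show no level of a transcript, and how many cells carried it cannot be told apart from how much each carried.

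Protein O-mannosylation and N-glycosylation both start in the endoplasmic reticulum. There, Pmt enzymes move mannose from dolichol phosphate mannose to serine and threonine, while the Alg enzymes build an oligosaccharide on dolichol that the oligosaccharyltransferase passes to asparagine. In the Golgi, yeast extends N-glycans into long branched mannan, the outer layer of the cell wall, and lengthens O-linked chains. All of this mannose comes from GDP-mannose, made in the cytosol.

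None of the 38 measured glycosylation genes passed the test against 0 (limma with Benjamini-Hochberg adjustment over 3641 genes, threshold 0.05; lowest adjusted p = 0.799, for KTR2), against 2 genes, or 0.0549%, of all those tested. Their means over the hybridizations ran from -0.43 (KTR4) to 0.54 (KTR2). At an unadjusted p under 0.05 there was 1 member, KTR2 with 0.0459, where 6.15% of all genes lay (2.77% higher and 3.38% lower). The median absolute mean was 0.14, beside 0.19 over all genes tested, and the median SD over the hybridizations was 0.27 beside 0.38. Only KTR2 had an absolute mean over 0.5, a size that 10.4% of all genes reached.

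**Figure D1:**
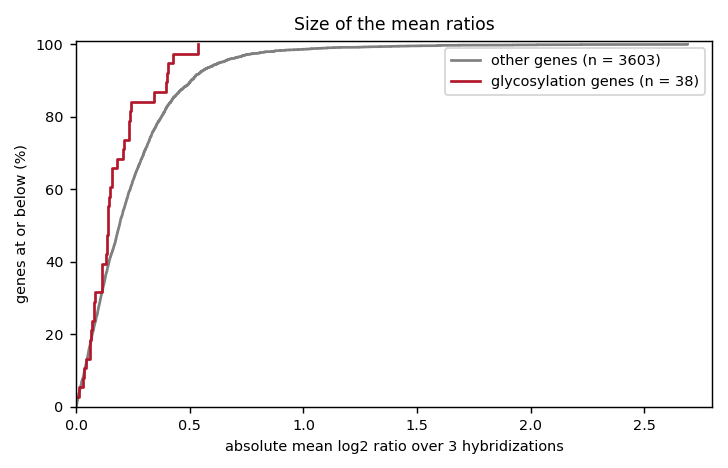
Cumulative share of genes (y axis, percent) at or below each absolute mean log2 ratio (x axis), for the 38 measured glycosylation genes (red) and the 3603 other genes tested (grey). The red line ends at 0.54, the value of KTR2, while the grey line continues to 2.69.

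Precision was limited: the 95% confidence interval of a member's mean reached 0.52 to either side in the median. For 37 of the 38 members that interval lay inside a 2-fold change in either direction, beside 82.7% of all genes, and KTR2, with an upper limit of 1.06, was the exception. A change larger than 2-fold therefore lay outside the interval of these 37, taken gene by gene without adjustment. Means closer to 0 than about the half-width of the interval were not detectable on these arrays even without adjustment. The test and these intervals borrow much of their spread from all genes, so interval widths differed little between members. MNN5, with an SD of 0.06, had an interval of -0.66 to 0.34. PMT3, with an SD of 0.59, had -0.96 to 0.27. For genes as spread as PMT3 the 2-fold limit thus rests on the shared spread. An interval from their own spread alone would be wider. With 3 hybridizations an exact sign-flip test can reach no p under 0.25.

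The hybridizations ordered the members differently. Of the 38, 11 had the same sign on all 3 hybridizations (28.9%), near the 27.5% of all genes. Higher on each were ALG12, KTR1, KTR2, PSA1 and SEC53 (5 of 38, where 11.5% of all genes were), and lower on each were PMT1, OST6, MNN5, HOC1, KTR4 and VAN1 (6 of 38, where 16.1% were). Across members, which share arrays and are not independent, Pearson's r was 0.19 for replicates 1 and 2 and 0.03 for 1 and 3, and it was 0.37 for replicates 2 and 3 (n = 38 genes). Over all 3641 genes the same correlations were 0.21, -0.05 and 0.07. High and low scans of a hybridization, which are rescans and no replicates, gave r of 0.90, 0.87 and 0.87 over the 39, 25 and 26 members with both.

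**Figure D2:**
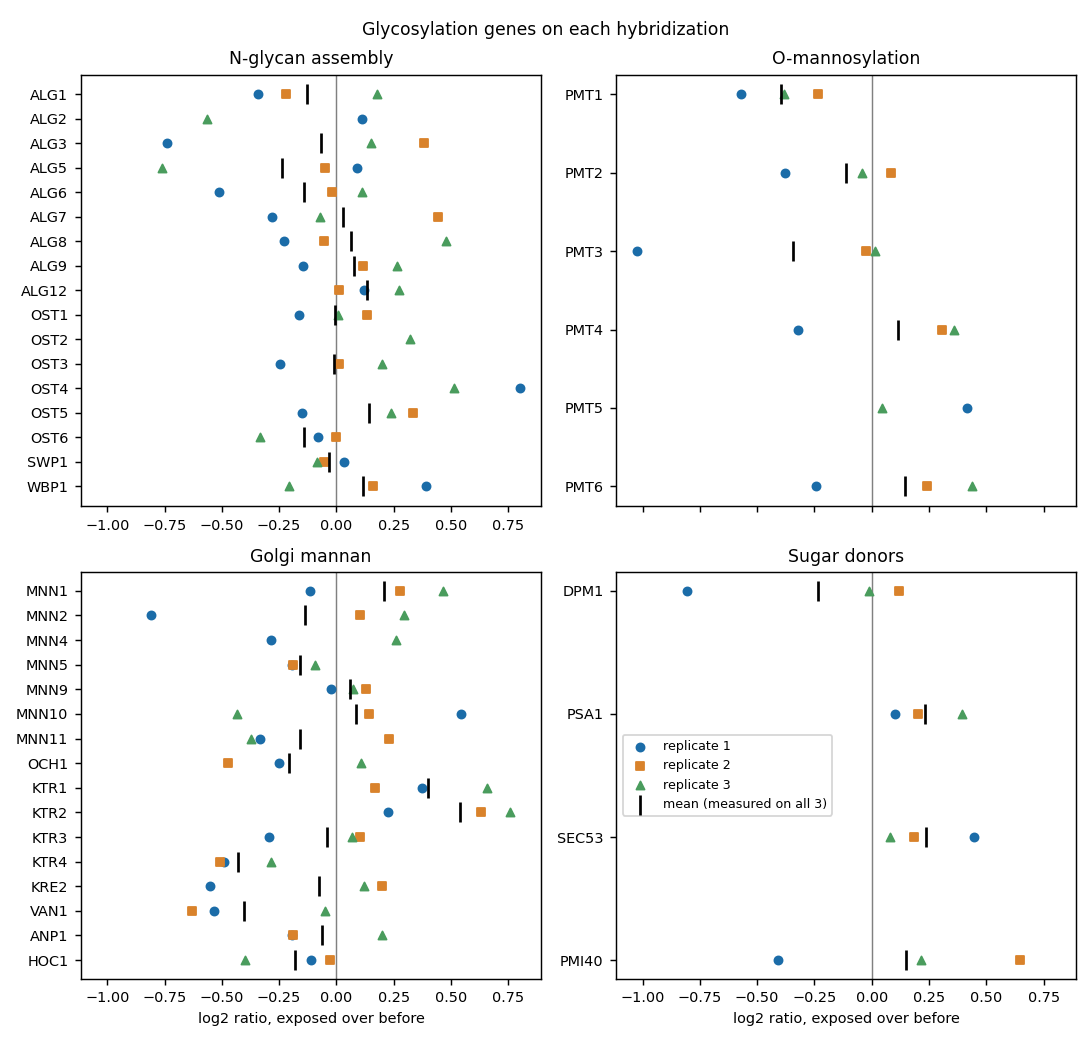
Log2 ratio of exposed over before (x axis) for the 43 glycosylation genes with a spot (rows), in 4 panels by role. Circles, squares and triangles are replicates 1, 2 and 3, and black bars are means of the 38 genes measured on all 3. Points of most genes lie on both sides of 0, and replicate 1 is often the leftmost.

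Replicate 1 stood apart from the others for these genes. On it 29 of 38 members were negative, with a median of -0.24, against 14 on replicate 2 and 14 on replicate 3, with medians of 0.11 and 0.09. Of all genes tested, 57.2%, 50.6% and 52.1% were negative on replicates 1, 2 and 3, so that replicate 1 held the most negative values there too. Replicate 1 gave the lowest of the 3 values for 25 members, or 65.8%, beside 39.5% of all genes, whose medians were -0.09, -0.01 and -0.02. Among genes with both scans on every array, replicate 1 was lowest for 15 of 20 members (75%), beside 47.8% of 967 genes. Replicate 1 medians were -0.26 for these 20 members and -0.13 for the 967 genes. The local median over 36 spots with adjacent numbers was also subtracted, a setting chosen after seeing the data. Replicate 1 was then lowest for 20 of the 38 members (52.6%), with a median of -0.11, and for 34.5% of all genes. Centring each array on its median, which uses no spot position, gave 23 members (60.5%) and 34.7% of all genes. The part of spot position in these counts was not tested.

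By role, the median of the means was -0.11 for 5 measured O-mannosylation genes, -0.01 for 14 N-glycan assembly genes and -0.08 for 15 Golgi mannan genes, beside -0.04 for all genes tested. On replicates 1, 2 and 3 in turn the O-mannosylation median was -0.38, 0.08 and 0.01. The N-glycan median was -0.16, 0.01 and 0.13, and the Golgi median was -0.20, 0.10 and 0.07. All 3 roles were thus below 0 on replicate 1 and above it on replicates 2 and 3. The Golgi median minus the N-glycan median was -0.04, 0.09 and -0.06, which changes sign between arrays. The Golgi median exceeded the O-mannosylation median by 0.18, 0.02 and 0.06, and the N-glycan median differed from the O-mannosylation median by 0.22, -0.07 and 0.12. These differences are descriptions of 3 arrays, with no test. Without replicate 1 the medians of the means were 0.02, 0.09 and 0.0040 for O-mannosylation, N-glycan assembly and Golgi mannan, so the negative signs did not hold without that array. Some turned with replicate 1 kept too. The N-glycan median was 0.030 with each array centred and 0.0083 over genes in both scans, where the Golgi median was 0.0080. With local spot medians subtracted, the O-mannosylation median on replicate 1 was -0.04 in place of -0.38, and the median of its means was 0.04.

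**Figure D3:**
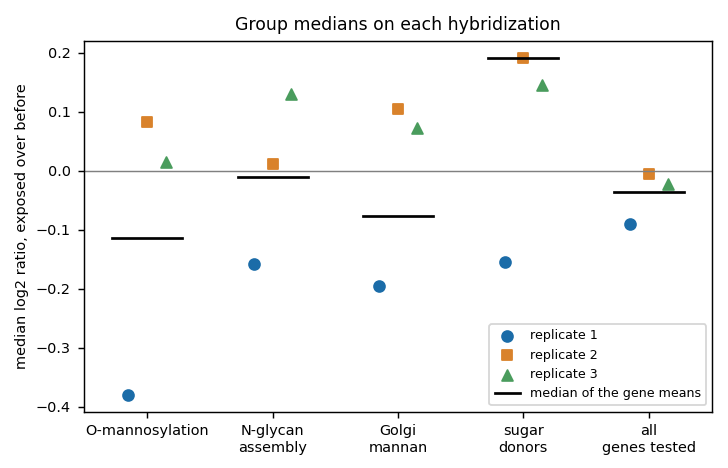
Median log2 ratio of exposed over before (y axis) of each role group and of all 3641 genes tested (x axis), on replicates 1 (circles), 2 (squares) and 3 (triangles), with a bar at the median of the gene means. Every role group lies lowest on replicate 1, from -0.38 for O-mannosylation to -0.16 for the sugar donors.

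Among the protein O-mannosyltransferases, PMT1 (YDL095W) was negative on every array, at -0.57, -0.23 and -0.38. Its mean was -0.40 ± 0.17 (SD, n = 3), or 1.32-fold lower, without passing the test (limma, adjusted p = 0.854, 95% interval -0.90 to 0.11). PMT2 (YAL023C), whose product pairs with Pmt1 in the main O-mannosyltransferase complex, had -0.38, 0.08 and -0.04, a mean of -0.11 ± 0.24. PMT1 was lower than its partner on each array, by 0.28 ± 0.08 on average, a difference that was not tested. PMT3 (YOR321W), of the PMT2 subfamily, had -1.02 on replicate 1 but -0.02 and 0.01 on the others, so its mean of -0.34 ± 0.59 came from a single array and was -0.0047 without it. PMT4 (YJR143C), whose product acts as a homodimer, had -0.32, 0.30 and 0.36, a mean of 0.11 ± 0.38. PMT6 (YGR199W) had -0.24, 0.24 and 0.44. Both thus differed in sign between replicate 1 and the rest. PMT5, the gene next to PMT1 on chromosome IV, had 0.42 on replicate 1 and 0.05 on replicate 3, above PMT1 on both.

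For assembly of the lipid-linked oligosaccharide, means of the 8 measured genes ran from -0.24 to 0.14, with 4 positive and 4 negative. ALG7 (YBR243C), which encodes the transferase of the first step, the target of tunicamycin, had -0.28, 0.44 and -0.07, a mean of 0.03 ± 0.37 on both sides of 0. ALG5 (YPL227C), the gene of dolichol phosphate glucose synthase, had the lowest mean, -0.24 ± 0.46 (limma, adjusted p = 0.927). Its values were 0.09, -0.05 and -0.76, so that replicate 3 set the mean, which was 0.02 without that array. On replicates 2 and 3 only the high-power scan gave a value for ALG5. ALG12 (YNR030W), whose product adds a mannose inside the endoplasmic reticulum, was the only member of this group with the same sign on each array, at 0.12, 0.01 and 0.27. Its value on replicate 2 averaged 0.10 in the high-power scan and -0.08 in the low-power scan.

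The mannosyltransferase genes ALG1, ALG3 and ALG9 had means of -0.13 ± 0.27, -0.07 ± 0.59 and 0.08 ± 0.21. ALG3 went from -0.74 on replicate 1 to 0.38 on replicate 2, the widest range in the group. The glucosyltransferase genes ALG6 and ALG8, which add glucose to the finished mannose core, had -0.14 ± 0.33 and 0.06 ± 0.37. ALG2, which encodes an early mannosyltransferase, had 0.11 on replicate 1 and -0.57 on replicate 3.

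Subunits of the oligosaccharyltransferase lay close to 0, with means of 6 measured genes from -0.14 to 0.14 and a median SD of 0.20. OST3 (YOR085W) and OST6 (YML019W) encode alternative subunits of the complex. OST3 had -0.25, 0.01 and 0.20, and OST6 had -0.08, -0.0038 and -0.33. On replicate 2 the scans of OST6 differed in sign, at -0.064 with high power and 0.056 with low power. OST3 minus OST6 was -0.16, 0.01 and 0.53, so the arrays did not order the pair in a single way. SWP1 had an SD of 0.06 around a mean of -0.03, OST1 had -0.0079 ± 0.15, OST5 0.14 ± 0.26 and WBP1 0.11 ± 0.30. Seen in the high-power scan alone, the small subunit gene OST4 (YDL232W) had 0.80 on replicate 1 and 0.51 on replicate 3. OST4 had the highest value of any member on replicate 1. It could not enter the test on 3 hybridizations, and over genes with at least 2 its adjusted p was 0.952 (limma). OST2 had 0.32 on its only array.

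In the Golgi, OCH1 (YGL038C), whose product starts the outer chain, had -0.25, -0.47 and 0.11, a mean of -0.21 ± 0.29 (limma, adjusted p = 0.929). Mannan polymerase complexes then extend the backbone. MNN9 (YPL050C), a subunit of both complexes, had -0.02, 0.13 and 0.07, a mean of 0.06 ± 0.08. VAN1 (YML115C), its partner in the first complex, was negative throughout, at -0.53, -0.63 and -0.05. The VAN1 mean was -0.41 ± 0.31, or 1.32-fold lower (limma, adjusted p = 0.854, 95% interval -0.94 to 0.13). VAN1 was below MNN9 on every array, by 0.51, 0.76 and 0.12, which was not tested either.

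The other complex pairs MNN9 with the products of ANP1, MNN10, MNN11 and HOC1. ANP1 had a mean of -0.06 ± 0.23 and HOC1 -0.18 ± 0.19, the latter negative on each array. MNN10 (YDR245W) had 0.54, 0.14 and -0.43, and MNN11 (YJL183W) had -0.33, 0.23 and -0.37. MNN10 minus MNN11 was 0.88 on replicate 1 and -0.09 and -0.06 on the others. Of the 6 polymerase genes none passed the test, and 2 had the same sign on all arrays, both lower.

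Branches are added by Mnn2 and Mnn5. MNN2 (YBR015C), for the first branching mannose, had -0.81, 0.10 and 0.29, and its mean of -0.14 ± 0.59 was 0.20 without replicate 1. MNN5 (YJL186W), for the next mannose, had -0.20, -0.19 and -0.09, a mean of -0.16 ± 0.06. Its SD was the smallest of the 38 members. MNN5 and MNN11 lie near each other on chromosome X, with 2 genes between them, yet on replicate 2 they had -0.19 and 0.23. MNN1 (YER001W), whose product caps N- and O-linked chains with a terminal mannose, had -0.12, 0.28 and 0.46, a mean of 0.21 ± 0.30 (limma, adjusted p = 0.929). MNN4, a regulator of mannosylphosphate transfer, had -0.29 on replicate 1 and 0.26 on replicate 3.

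Among the 38 members measured on all 3 hybridizations, the KRE2/KTR family of Golgi mannosyltransferases held the highest and the lowest mean. KTR2 (YKR061W), implicated in N-linked outer chains, had 0.23, 0.63 and 0.76. Its mean was 0.54 ± 0.28, or 1.45-fold higher (limma, adjusted p = 0.799, 95% interval 0.01 to 1.06). KTR1 (YOR099W), which acts on both N- and O-linked chains, had 0.37, 0.17 and 0.66, a mean of 0.40 ± 0.25 or 1.32-fold higher (limma, adjusted p = 0.854). KTR4 (YBR199W), a putative mannosyltransferase gene, had -0.49, -0.51 and -0.29, with a mean of -0.43 ± 0.12 or 1.34-fold lower (limma, adjusted p = 0.840). KTR2 was above KTR4 on each array, by 0.72, 1.14 and 1.04, a pair picked for its extremes and therefore not tested.

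KTR3 and KRE2, whose products share the lengthening of O-linked chains with Ktr1, lay between them, at -0.04 ± 0.22 and -0.08 ± 0.41. Each was negative on replicate 1 (-0.30 and -0.55) and positive on the other arrays. Family genes outside the 44 spread as widely. KTR7 (YIL085C) had -0.87, -0.87 and -0.29, a mean of -0.67 ± 0.33 (limma, unadjusted p = 0.0196, adjusted p = 0.675). KTR6, which encodes a mannosylphosphate transferase, had 0.32 ± 0.43, KTR5 -0.04 ± 0.11 and YUR1 0.09 ± 0.46. Family members are related in sequence, so spots may pick up transcripts of a relative, which was not tested.

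**Figure D4:**
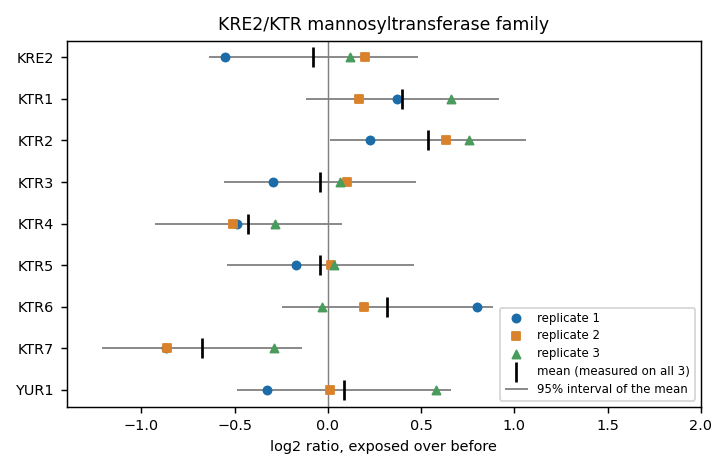
Log2 ratio of exposed over before (x axis) for the 9 measured genes of the KRE2/KTR family (rows), of which KTR5, KTR6, KTR7 and YUR1 are outside the 44. Circles, squares and triangles are replicates 1, 2 and 3, black bars are means and grey lines are 95% confidence intervals; KTR1 and KTR2 lie right of 0 on each array, and KTR4 and KTR7 left of it.

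The sugar donor genes had the highest role median, 0.19 over 4 genes, with -0.16, 0.19 and 0.15 on the arrays. It was 0.07 without replicate 2 and 0.00068 with the low-power scan alone, which measured 2 of the 4, and 0.045 over all 4 with local spot medians subtracted. PMI40 (YER003C), phosphomannose isomerase, opens the route from fructose 6-phosphate. It had -0.41, 0.65 and 0.21, a mean of 0.15 ± 0.53. SEC53 (YFL045C), phosphomannomutase, had 0.45, 0.18 and 0.08, a mean of 0.24 ± 0.19 (limma, adjusted p = 0.923). PSA1 (YDL055C), GDP-mannose pyrophosphorylase, had 0.10, 0.20 and 0.39, a mean of 0.23 ± 0.15 (limma, adjusted p = 0.924). Both were above 0 on every array, by amounts inside their intervals around 0. On replicate 1 the scans of PSA1 differed in sign, at -0.045 with high power and 0.24 with low power. DPM1 (YPR183W), which encodes dolichol phosphate mannose synthase, the donor enzyme for steps inside the endoplasmic reticulum, had -0.80, 0.12 and -0.01, so that its mean of -0.23 ± 0.50 came from replicate 1.

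Further genes of the pathway, 34 listed beside the 44, included 24 measured on all 3 hybridizations. None passed the test. At an unadjusted p under 0.05 there were 0 higher and 1 lower, KTR7, where 2.77% and 3.38% of all genes lay. The list median was -0.08, with -0.31, 0.01 and 0.04 on the arrays. ALG13 (YGL047W), which encodes the catalytic subunit of the enzyme for the second sugar of the dolichol-linked chain, came next by p, with -0.30, -0.61 and -0.29 (mean -0.40 ± 0.18, limma, adjusted p = 0.854). VRG4, the Golgi GDP-mannose transporter gene, named after its values were seen, had 0.41, 0.39 and 0.04.

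For comparison, 11 measured folding factors of the endoplasmic reticulum had a median of 0.12, with -0.12, 0.37 and 0.18 on the arrays. None passed the test, and 2 of the 11 had an unadjusted p under 0.05, both higher, where 2.77% of all genes were: SIL1 at 0.76 ± 0.35 and FPR2 at 0.73 ± 0.40 (limma, adjusted p = 0.595 and 0.632). The 12 measured genes of glucan and chitin synthesis, which make the inner cell wall, had a median of 0.07, with 0.12, -0.20 and 0.17 on the arrays. None of them passed, and 1 of the 12, KRE1, had an unadjusted p under 0.05, on the lower side, where 3.38% of all genes were. KRE1 (-0.61 ± 0.29) and CHS1 (-0.63 ± 0.81) had the smallest p (limma, adjusted p = 0.768 and 0.821). On replicate 1, 6 of the 11 folding factors and 5 of the 12 glucan and chitin genes were negative, beside 57.2% of all genes. The difference between lists was not tested.

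Markers of mating type and meiosis were mostly not measured. Of 6 genes of a cells and 4 of meiotic cells, 0 had a value on all 3 hybridizations. Of the 4 genes of alpha cells, 3 did: SAG1 had -1.29, -0.69 and -1.33, STE3 -0.13, -0.98 and -1.04, and MF(ALPHA)2 0.16, 0.67 and 0.06, with adjusted p from 0.220 upward (limma). Because values are ratios, the presence or absence of a cell type cannot be read from them, and their part in the glycosylation values was not tested.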

How the data were processed

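The authors' deposited log2 ratios per spot (6912 spots, 6 scans) had been LOWESS-normalized per scan using unflagged spots (flag value 0), per the labels. The log base, the direction, the background correction and the signal intensity are not given here by any label. Because LOWESS centres ratios at every brightness, a change shared by most transcripts would be removed. Values merged over both scans were not used here. The platform annotation named a gene for 5513 spots, matched by gene number to the R64 gene table (5 through an older name), which was used for names and gene order only. High and low scans were averaged within each of the 3 hybridizations, then spots of a gene. Where only 1 scan had a value, it was used alone. That held for 7.0%, 30.2% and 39.5% of the 43 members with a spot, on replicates 1, 2 and 3. For the 3641 genes with a value on all 3, limma 3.58.1 (R 4.3.3) compared the mean with 0 (eBayes, two-sided, Benjamini-Hochberg over all genes, threshold 0.05). The procedure was tested on simulated data.

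The members and lists were chosen with earlier results of these data known. Named in full were the 3 members of each role with the smallest p, the one with the largest mean, and partners in a complex or family; remaining members are given by the values they have, and other lists by the 2 genes with the smallest p. Genes of the KRE2/KTR family outside the members were named after their values were seen. Alternatives were either scan alone, genes seen in both scans, a minimum of 2 hybridizations, centring, scaling, the median of spots, robust moderation and each replicate left out. Removal of position medians and a test without moderation were chosen after seeing the data. The number of arrays limits the precision, and signal over background is unknown.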

Additional observations from a re-analysis of the deposited data

How the results depend on the processing

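No glycosylation gene and no further pathway gene passed under any of the 13 other settings (lowest adjusted p of a member 0.613, VAN1 without replicate 3). Calls over all genes, 2 as reported, were 4 over genes in both scans, 1 with position medians taken out, 0 without moderation, and 0, 1 and 11 without replicates 1, 2 and 3 in turn. Members with 1 sign on each array, 11 as reported, were 6 of 25 with the low-power scan, 7 of 20 over genes in both scans and 26, 15 and 19 of 38 without replicates 1, 2 and 3, when only 2 arrays had to share a sign (68.4%, 39.5% and 50.0%, beside 52.6%, 46.8% and 55.7% of all genes). The sugar donor median, 0.19, was 0.00068 with the low-power scan and -0.00091 over genes in both scans, each with 2 genes measured, and 0.045 over all 4 with position medians taken out. The other role medians moved by less than their SD between arrays, though each changed sign under some settings.

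Of the 38 means, 17 kept their sign under all settings run and 21 changed it, none with a call. KTR1, KTR2, KTR4, PMT1 and VAN1 were among the 17. Part of this was fixed in advance. Settings that changed the test, the summary of spots or the genes admitted left each mean they covered as it was. These named genes had the same sign on each array, so neither scaling nor leaving out a replicate could change it. For them only a scan alone, centring and removal of position medians could. Sign changes with position medians taken out gave PMT2 0.039, ALG3 0.0099, ALG7 -0.081, OST3 0.016, SWP1 0.19, WBP1 -0.11, MNN10 -0.059, ANP1 0.033 and SEC53 -0.013. Centring gave OST1 0.032, OST3 0.028 and SWP1 0.0058, scaling gave OST3 0.0024, and the high-power scan gave ALG9 -0.020 and OST3 0.014. The cause was not tested. With a replicate left out, means ranged from -0.21 to 0.019 for PMT2, from -0.29 to 0.27 for ALG3, from -0.27 to 0.046 for ALG6, from -0.079 to 0.070 for OST1, from -0.12 to 0.10 for OST3, from -0.025 to 0.28 for WBP1, from -0.35 to 0.20 for MNN2, from -0.15 to 0.34 for MNN10, from -0.12 to 0.085 for KTR3, from -0.22 to 0.16 for KRE2, from -0.19 to 0.0040 for ANP1, from -0.41 to 0.053 for DPM1, from -0.18 to 0.18 for ALG7, from -0.099 to 0.43 for PMI40, from -0.0093 to 0.33 for PMT4, from -0.0010 to 0.34 for PMT6, from -0.41 to 0.021 for ALG5, from -0.14 to 0.21 for ALG8 and from -0.015 to 0.19 for ALG9. Each ratio already sets exposed cells against the earlier cells on the same array, so the test against 0 compares them within arrays. Whether both RNAs of an array came from the same culture is not stated here. The samples form a single group of ratios, with no further pairing between them. Signal over background is unknown, so no limit from depth can be given.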
